A study of Mus musculus with 4 samples.

Results

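The genes described here encode proteases and protease inhibitors other than the matrix metalloproteinases and their relatives, measured by RNA sequencing in colitis tissue of mice with and without Elf4, which encodes an Ets transcription factor. They were chosen by gene symbol from the authors' deposited table of genes that differed between the genotypes: serpins, cystatins and stefins, WAP domain proteins, Prss, Tmprss and Cela serine proteases, cathepsins and legumain, meprins, dipeptidyl peptidases, carboxypeptidases, ADAM proteases, calpains, proprotein convertases and the urokinase system. Of the 4121 listed genes, 62 matched. By family, 32 are proteases, 23 are inhibitors and 7 are neither.

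Both groups were C57BL/6 mice aged 8 weeks in which 3% dextran sulfate sodium (DSS) had injured the colon lining, and the inflamed distal colon was taken at day 6. One group was WT and the other Elf4-KO, with 2 samples each. No untreated group was used here, the labels do not say how the knockout was made, nor whether each sample is a separate animal. The table holds 1 FPKM value per gene and genotype (a level per length of transcript and per mapped fragments), so no SD, n or replicate spread can be given and the depth is unknown. Rose and fell below rest on the authors' own test and on their limit of at least a 2-fold difference. The level of Elf4 itself was 16.4 FPKM in the WT column and 3.51 FPKM in the Elf4-KO column.

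Proteases cut proteins, and in the gut they act in several places. Enterocytes carry membrane-anchored serine proteases and brush border peptidases, macrophages digest proteins with lysosomal cathepsins, and urokinase turns plasminogen into plasmin, which dissolves fibrin. Inhibitors hold these enzymes in check. Serpins trap serine proteases in a covalent complex, cystatins and stefins block cysteine cathepsins, and several WAP proteins bind serine proteases of neutrophils.

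The listed inhibitors mostly rose and the listed proteases went both ways. Of the 23 inhibitors, 18 were higher in the knockout and 5 lower (78.3% higher), beside 48.0% higher among all listed genes. Of the 32 proteases, 14 were higher and 18 lower (56.2% lower), beside 52.0% lower among all listed genes, so the protease count lay near that of the table. The sizes differed by side. Proteases that fell did so by a median of 8.25-fold and those that rose by 3.25-fold. The 16 rising inhibitors with a fold had a median of 6.83-fold, and the 5 that fell had a median of 6.16-fold. The same medians over the whole table were 3.71-fold for falls and 2.91-fold for rises. With a difference of at least 4-fold, 11 inhibitors rose and 4 fell, whereas 5 proteases rose and 14 fell. In the whole table, 12.9% of listed genes rose and 24.5% fell by at least 4-fold. Genes listed at 0 in 1 genotype have no fold but were included in these counts, Stfa2 and Stfa3 among the 11 inhibitors. On the log2(FPKM + 1) scale the median difference was -1.19 for the proteases and 1.29 for the inhibitors, beside -0.76 for all listed genes. The protease median depended on 4 inactive relatives counted as neither: with these counted in their families, 18 proteases were higher and 18 lower and the median was -0.15. Capn6, which lacks the catalytic cysteine, was kept among the 32 proteases. Without it, a choice made after seeing the data, 13 were higher and 18 lower and the median was -1.36. Measured from the table median, the main medians were -0.44 and 2.04, and Serpina10 changed sign under this shift, which is the same for every gene. Without values per sample, the difference between proteases and inhibitors was not tested.

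**Figure D1:**
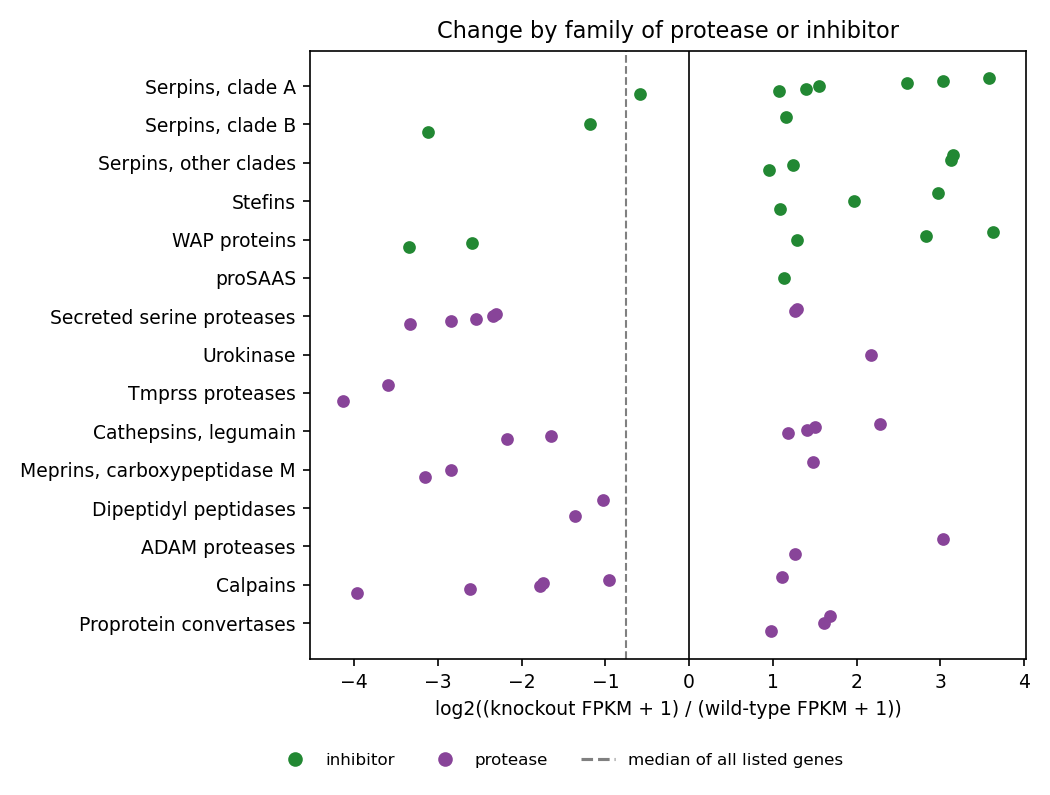
Each point is 1 gene, placed by its log2 ratio of knockout over wild type after adding 1 to both FPKM values (horizontal axis) and by its family (vertical axis), with inhibitors in green, proteases in purple and the median of all 4121 listed genes as a dashed line. The 6 listed Serpina3 genes and the 3 listed stefins lie on the right, and the listed Tmprss proteases, meprins and dipeptidyl peptidases lie on the left.

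The summed level of the listed inhibitors was 2120 FPKM in wild type against 4327 FPKM without Elf4, a 2.04-fold rise. The summed level of the listed proteases went from 1645 to 1440.4 FPKM. Listed inhibitor transcripts thus summed to 1.29 times the listed protease transcripts in wild type and to 3.00 times in the knockout. Single genes weighed heavily on both sums. Serpina3n made up 15.5% of the inhibitor sum in wild type and 46.1% in the knockout, and without it the ratios of inhibitors to proteases were 1.09 and 1.62. The knockout sum was then 1.30 times the wild-type sum for the inhibitors. Without Ctsl, the highest protease, the knockout sum was 0.573 times the wild-type sum for the proteases, against 0.876 times with it. All these sums cover listed genes only, 32 of 147 annotated coding proteases and 23 of 94 inhibitors that match the symbol rule. Matching genes that were not listed are left out, so the ratios describe the called genes and not all proteases and inhibitors. The sums also cover genes of the symbol rule only. The 14 listed Kunitz, Kazal and macroglobulin inhibitors and relatives outside it, 9 higher and 5 lower, went from 3630 to 465 FPKM in sum. Together, the 47 listed protease, inhibitor and receptor genes outside it went from 8172 to 1875 FPKM. The rise of the inhibitor sum thus holds for the listed genes of the rule.

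**Figure D2:**
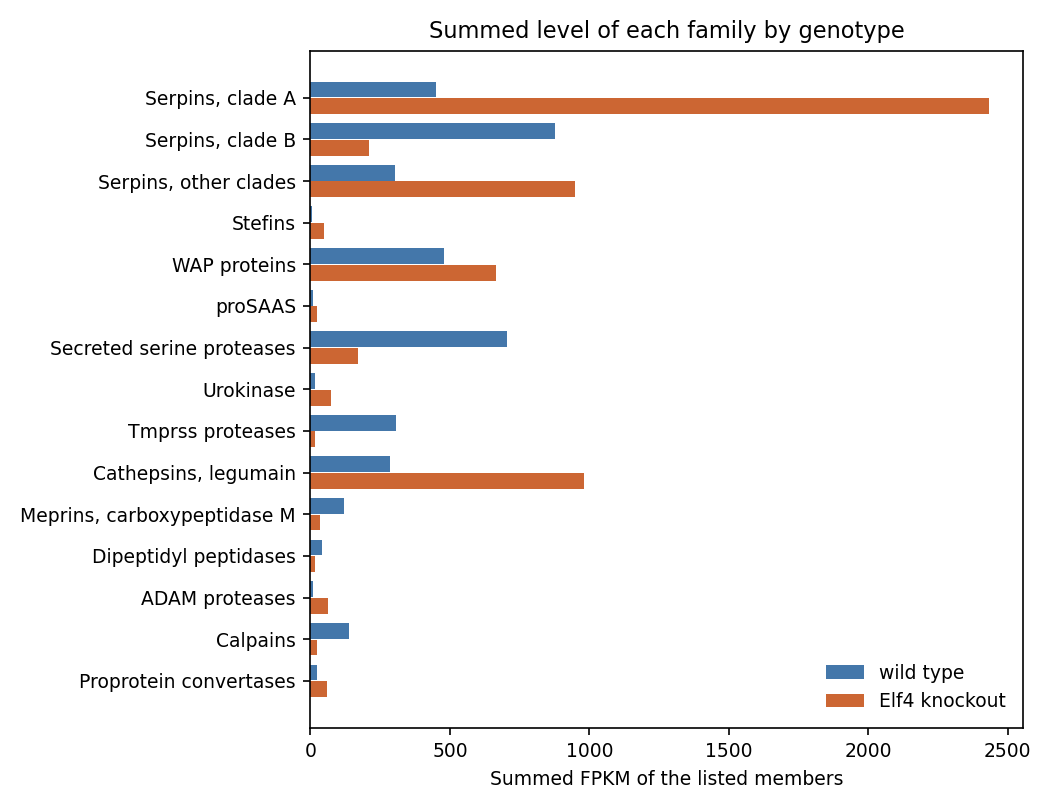
Bars give the summed FPKM (horizontal axis) of the listed members of each family (vertical axis) in wild type (blue) and in the Elf4 knockout (orange), with 1 deposited value per gene and genotype. Clade A serpins went from 449 to 2432 FPKM and cathepsins with legumain from 285 to 981 FPKM, while clade B serpins went from 877 to 209 FPKM.

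Which gene led the set also changed. In wild type the highest level was that of Serpinb1a, at 545.5 FPKM, followed by Prss32, Serpinb6a, Serpina3n and Serping1. In the knockout Serpina3n led, followed by Serping1, Ctsl, Wfdc17 and Lgmn. Serpinb1a dropped to rank 15 of 62 and Prss32 from rank 2 to rank 21.

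Markers of several cell types moved in the same tissue. All 20 epithelial markers were listed and lower, with their summed level going from 18288 to 1866 FPKM. Of 18 neutrophil markers, 14 were listed, 12 of them higher, and the sum went from 1306 to 5564 FPKM. The 2 lower ones, named after their values were seen, were Ly6g, from 854 to 146 FPKM, and Ltf, from 14.4 to 2.05 FPKM. Among 18 markers of monocytes and macrophages, 10 were listed and all 10 were higher, with sums of 216 and 1065 FPKM. Of 11 fibroblast markers, 6 were listed and all 6 were higher (1271 and 4593 FPKM), and among 16 markers of T and NK cells all 11 listed were lower (202 and 62.4 FPKM). None of these listed markers was at 0 in either genotype. In bulk tissue, fewer cells of a type and less RNA per cell cannot be told apart, and the part of these shifts in the results below was not tested.

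The 2 listed Tmprss proteases and 5 of the 7 listed secreted serine proteases fell. Tmprss2, a trypsin-like protease of the cell surface that also primes viral spike proteins, went from 229.7 to 12.1 FPKM, an 18.9-fold fall. Its relative Tmprss4 fell 14.1-fold, from 77.6 to 5.52 FPKM. These were the only 2 of 17 annotated coding genes of this family in the table. Over all annotated coding genes, 3833 of 21951, or 17.5%, were in it. Prss32 was the protease with the highest wild-type level and fell from 412 to 40.1 FPKM, or 10.3-fold. Prss30 fell 5.06-fold, from 169 to 33.4 FPKM, and Prss27, also called marapsin, fell 22.1-fold, from 9.17 to 0.416 FPKM (q = 0.000694, from the authors' deposited table). The fold of Prss27 was the largest of the 60 genes with a fold.

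Prss8 encodes prostasin, which works in a cascade with the membrane protease matriptase and activates the epithelial sodium channel. It fell 8.44-fold, from 15.6 to 1.85 FPKM (q = 0.0321, from the authors' deposited table). Other parts of that cascade, outside the symbol rule, fell too. St14, the matriptase gene, went from 98.9 to 10.9 FPKM and Spint2, a Kunitz inhibitor of matriptase and prostasin, from 533 to 78.1 FPKM. Spint1, the paired inhibitor and chosen after its values were seen, went from 109 to 16.8 FPKM. Both proteases and both inhibitors of this pathway were thus lower in the knockout. F2rl1, the receptor PAR2 that trypsin-like proteases switch on by cutting it, also fell, from 82.2 to 10.4 FPKM.

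Not all secreted serine proteases fell. Cela1, an elastase gene, fell 5.43-fold, from 64.2 to 11.8 FPKM. Of 18 pancreatic acinar markers only Cela1 itself and Clps were listed, both lower. Htra3, a serine protease that binds TGF-beta family proteins, rose 2.49-fold, from 16.1 to 40.1 FPKM, and Prss23 rose 2.52-fold, from 17.2 to 43.5 FPKM. These 2 were the only members of the 7 listed genes in this family to rise.

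Both meprin subunits, both listed dipeptidyl peptidases and 5 of the 6 listed calpains fell. The meprin subunits Mep1a and Mep1b form a zinc protease complex of the brush border. Mep1b fell 9.77-fold, from 85.8 to 8.78 FPKM, and Mep1a fell 9.16-fold, from 28.6 to 3.12 FPKM. The level of Mep1b was 3.00 times that of Mep1a in wild type and 2.81 times in the knockout, so both subunits fell by similar folds. Dpp4, which trims incretin hormones and chemokines at the cell surface, fell 3.08-fold, from 9.32 to 3.03 FPKM. Dpp3, a zinc peptidase of the cytosol, fell 2.11-fold, from 31.4 to 14.9 FPKM.

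Carboxypeptidase M went the other way. Cpm, anchored in the membrane of macrophages among other cells, rose 3.04-fold, from 6.85 to 20.9 FPKM.

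Calpains are calcium-dependent cysteine proteases of the cytosol. Capn13 fell 19.7-fold, from 70.4 to 3.57 FPKM. Capn9, which pairs with Capn8 in mucus-producing cells of the gut, fell 8.98-fold, from 16.2 to 1.81 FPKM. Capn8 also fell, 8.06-fold, and was below 5 FPKM in both genotypes. Smaller falls were those of Capn5, 3.61-fold from 34.2 to 9.46 FPKM, and Capn10, 2.09-fold from 13.8 to 6.60 FPKM (q = 0.0381, from the authors' deposited table). Capn6, which lacks the catalytic cysteine, was the only listed calpain to rise and stayed below 5 FPKM. The ubiquitous calpains Capn1 and Capn2 were not in the table and are not analysed here.

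**Figure D3:**
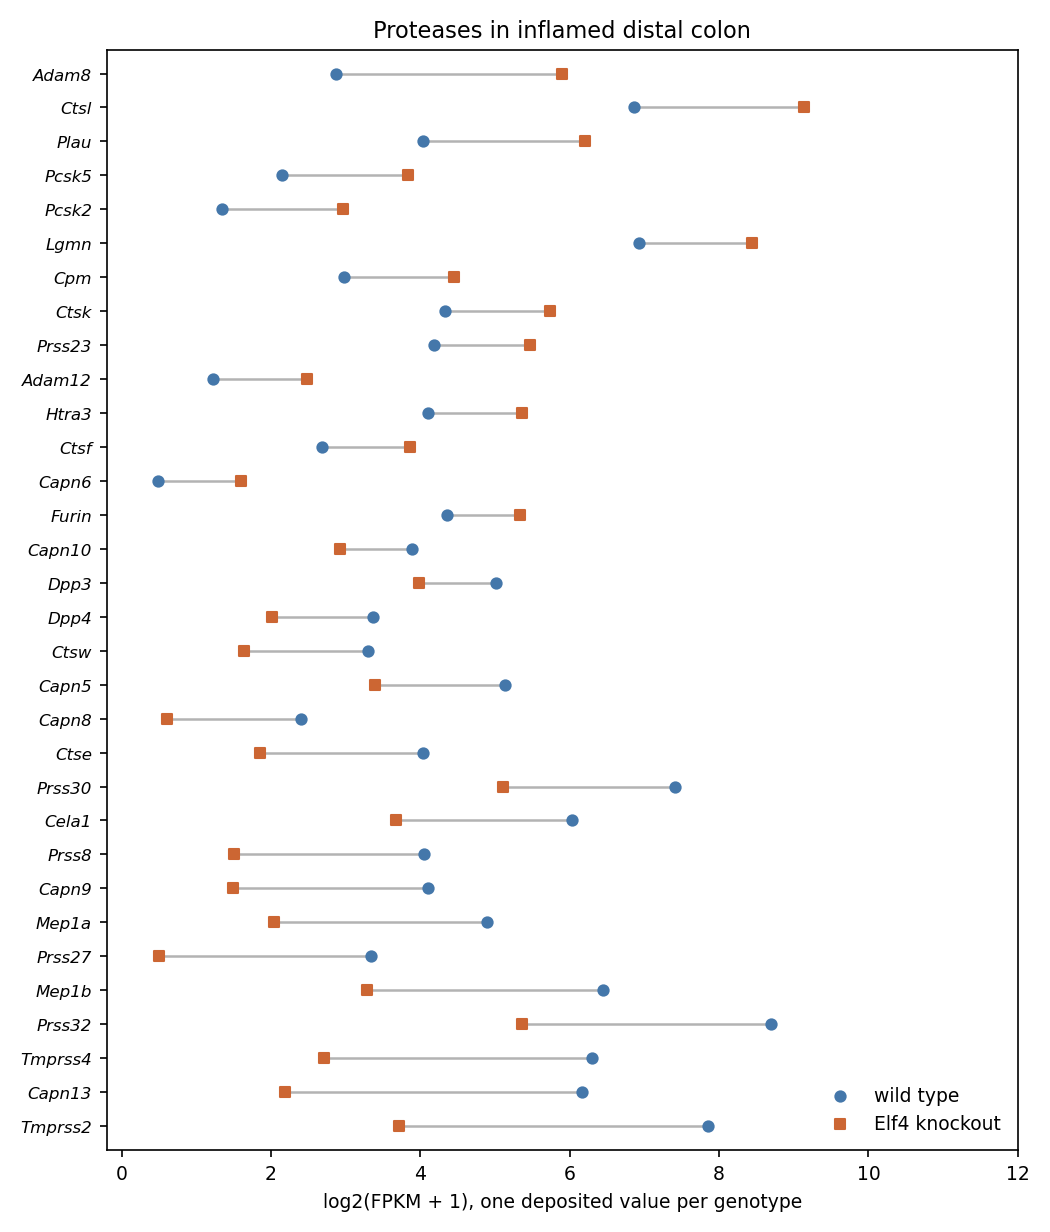
Each row is 1 of the 32 proteases, with its level in wild type (blue circle) and in the Elf4 knockout (orange square) on a log2(FPKM + 1) axis, 1 deposited value per genotype, ordered by the difference. The 18 genes at the bottom were lower in the knockout, and Ctsl at 564 FPKM and Lgmn at 347 FPKM stand highest among the 14 that were higher.

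The 18 proteases that fell can be set beside the 20 epithelial markers, which fell by 2.60-fold to 19.4-fold with a median of 11.5-fold. Of the 18, 14 lay inside that range. Capn10 and Dpp3 fell less than any epithelial marker, and Capn13 and Prss27 fell more than any. Every listed gene differed by at least 2-fold, and the range is wide. The share of all listed falling genes inside it was not computed, so the count is not particular to the proteases. The part of the epithelium in these falls was not tested.

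Of the 6 listed cathepsins and legumain, 4 rose. Ctsl, encoding cathepsin L, rose 4.91-fold, from 115 to 564 FPKM. Lgmn, the asparaginyl endopeptidase that matures several cathepsins, rose 2.86-fold, from 121 to 347 FPKM. Ctsk, a collagen-degrading cathepsin best known from osteoclasts, rose 2.74-fold, from 19.1 to 52.4 FPKM, and Ctsf rose 2.50-fold, from 5.41 to 13.5 FPKM (q = 0.00184, from the authors' deposited table). The ratio of Ctsl to Lgmn went from 0.947 to 1.63.

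The other 2 fell. Ctse encodes cathepsin E, an aspartic protease of gastrointestinal epithelium and some immune cells, and it fell 5.85-fold, from 15.4 to 2.62 FPKM. Ctsw, a cathepsin of cytotoxic T and NK cells, fell 4.15-fold, from 8.81 to 2.12 FPKM. The T and NK cell markers, all 11 of those listed lower, fell by a median of 2.80-fold. Of the 19 annotated coding genes of this family, 6 were in the table, beside 17.5% of all annotated coding genes. Ctsb, Ctsd, Ctss and Ctsz are among those not analysed here.

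Both listed ADAM proteases rose, of 25 annotated coding genes of that family, and so did 3 proprotein convertases, of 8. The share of all annotated coding genes in the table was 17.5%. Adam8, a membrane metalloprotease of neutrophils and macrophages, rose 9.36-fold, from 6.28 to 58.8 FPKM, the largest rise of any listed protease. Adam12 also rose and was below 5 FPKM in both genotypes (q = 0.00184, from the authors' deposited table). Proprotein convertases cut precursors of hormones, growth factors and receptors. Furin rose 2.01-fold, from 19.6 to 39.4 FPKM, Pcsk5 rose 3.86-fold, from 3.43 to 13.3 FPKM, and the neuroendocrine convertase Pcsk2 rose 4.40-fold, from 1.55 to 6.80 FPKM. Pcsk1n, encoding the neuroendocrine inhibitor proSAAS, rose 2.31-fold, from 9.46 to 21.9 FPKM (q = 0.00128, from the authors' deposited table).

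Urokinase, its receptor and inhibitors of plasminogen activators rose. Plau, encoding urokinase, rose 4.73-fold, from 15.4 to 72.7 FPKM. Plaur, the receptor that holds urokinase at the cell surface, rose 3.13-fold, from 29.9 to 93.6 FPKM. Serpine2, encoding protease nexin-1, which inhibits thrombin and urokinase, rose 9.04-fold, from 26.2 to 237 FPKM. Its level relative to Plau went from 1.70 to 3.25.

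Serpinb2, encoding PAI-2, also rose, and was below 5 FPKM in both genotypes (q = 0.0148, from the authors' deposited table). Serpini1, the neuroserpin that inhibits tissue plasminogen activator, rose 2.21-fold, from 3.41 to 7.52 FPKM (q = 0.0496, from the authors' deposited table). Plat, the tissue plasminogen activator gene, lies outside the symbol rule and was chosen after its values were seen. It rose from 10.6 to 45.4 FPKM. Serping1, encoding the C1 inhibitor of the complement and contact systems, rose 2.37-fold, from 264 to 625 FPKM.

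In a list of 18 plasminogen and clotting genes outside the rule, 11 were in the table, 8 higher and 3 lower. That is 72.7% higher, beside 48.0% among all listed genes. The clot-stabilizing factor gene F13a1 rose from 9.53 to 55.5 FPKM, whereas S100a10, a subunit of a plasminogen receptor at the cell surface, fell from 1548 to 308 FPKM. F2rl1, described above, was also among those that fell.

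The 6 listed clade A serpins of the Serpina3 group rose. Mice carry several tandem copies of the gene that encodes alpha-1-antichymotrypsin in humans, and the copies differ in the reactive loop that decides which protease they trap. The 6 listed copies lie in 268 kb of chromosome 12 (chr12:104146382-104414329, GRCm38), where the annotation places 8 coding genes of the family. Serpina3n, an acute-phase gene whose product inhibits granzyme B and elastase-type proteases, rose 6.08-fold, from 328 to 1993 FPKM, the highest level of any of the 62 genes. Serpina3m rose 12.9-fold, from 11.1 to 143 FPKM, and Serpina3c rose 14.2-fold, from 1.21 to 17.1 FPKM.

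The other 3 copies rose less. Serpina3i rose 3.96-fold, from 1.85 to 7.33 FPKM. Serpina3g, an inhibitor of lysosomal cathepsins that leak into the cytosol, rose 2.65-fold, from 85.0 to 225 FPKM, and Serpina3f rose 2.15-fold, from 21.4 to 46.0 FPKM. Serpina3n and Serpina3g had the highest levels in both genotypes, while Serpina3m stood below Serpina3f in wild type and above it in the knockout. Read assignment between copies is uncertain. Of the 50-base windows in their transcripts, 19.1% for Serpina3m, 15.9% for Serpina3i, 15.5% for Serpina3g and 10.6% for Serpina3f also occur in transcripts of other genes, against 6.90% for Serpina3n and 4.25% for Serpina3c. Serpina10, a clade A serpin of another locus that inhibits clotting factors with protein Z, fell and was below 1 FPKM in both genotypes (q = 0.0378, from the authors' deposited table).

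Promoter sequence is shown for 4 Serpina3 genes because these copies rose together, to let their starts be compared. The sequences are from RefSeq on GRCm38.p6 and run from 250 bases before to 50 bases after the annotated start, on the strand of the gene, with capitals marking TTCNNNGAA, a motif bound by STAT factors. They come from chr12:104406458-104406757 (plus strand) for Serpina3n, chr12:104153823-104154122 (minus strand) for Serpina3c, chr12:104262872-104263171 (plus strand) for Serpina3i and chr12:104235897-104236196 (plus strand) for Serpina3g.
Serpina3n: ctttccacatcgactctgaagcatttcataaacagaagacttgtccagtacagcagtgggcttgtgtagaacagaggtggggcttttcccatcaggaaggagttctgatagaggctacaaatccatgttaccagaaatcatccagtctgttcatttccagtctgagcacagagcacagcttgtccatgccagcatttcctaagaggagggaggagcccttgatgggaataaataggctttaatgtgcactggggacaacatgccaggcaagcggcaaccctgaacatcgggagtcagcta
Serpina3c: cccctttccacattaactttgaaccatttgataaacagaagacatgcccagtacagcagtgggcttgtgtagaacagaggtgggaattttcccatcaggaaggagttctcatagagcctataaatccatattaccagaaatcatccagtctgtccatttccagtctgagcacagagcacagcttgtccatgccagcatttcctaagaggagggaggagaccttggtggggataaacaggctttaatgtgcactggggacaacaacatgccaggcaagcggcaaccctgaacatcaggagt
Serpina3i: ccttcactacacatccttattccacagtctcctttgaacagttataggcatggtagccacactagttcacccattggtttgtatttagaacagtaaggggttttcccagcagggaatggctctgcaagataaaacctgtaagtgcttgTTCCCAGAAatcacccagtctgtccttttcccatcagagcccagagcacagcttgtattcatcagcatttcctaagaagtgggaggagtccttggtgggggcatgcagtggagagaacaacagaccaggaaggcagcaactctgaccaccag
Serpina3g: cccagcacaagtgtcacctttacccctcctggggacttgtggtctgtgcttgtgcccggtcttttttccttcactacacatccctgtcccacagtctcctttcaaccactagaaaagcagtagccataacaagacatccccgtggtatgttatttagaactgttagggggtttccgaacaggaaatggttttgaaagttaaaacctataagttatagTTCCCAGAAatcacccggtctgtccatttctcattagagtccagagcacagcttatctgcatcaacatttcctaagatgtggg
The promoters of Serpina3n and Serpina3c were 93.5% identical over 294 aligned bases, the closest pair among the 5 Serpina3 promoters compared. Serpina3n and Serpina3i were 81.5% identical over 265 aligned bases. The motif TTCNNNGAA, which reads the same on both strands, occurred once each in Serpina3i and Serpina3g and also in Serpina3f, and not in these windows of Serpina3n and Serpina3c. It occurred in 9.55% of all 27025 genes with a promoter in the RefSeq table. Of the members there it was found in 4 of 14 inhibitors that rose, the fourth being Serpinb2, and in 1 of 12 proteases that rose. It was found in 1 of 3 inhibitors that fell (Serpinb6a) and in 0 of 12 proteases that fell. Over all members with a promoter it was found in 6 of 47, or 12.8%, beside 9.55% of all genes. These matches are descriptions of the letters and name no bound factor.

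The 3 listed stefins rose from low levels. Stefins are small cytosolic inhibitors of cysteine cathepsins, and mice have several in tandem on chromosome 16, where 3 listed genes lie within 299 kb that holds 5 annotated coding genes of the rule. Stfa2l1 rose 9.23-fold, from 4.84 to 44.7 FPKM. For Stfa2 the wild-type value was a listed 0 and the knockout value 2.91 FPKM, and for Stfa3 they were 0 and 1.12 FPKM (q = 0.0338 for Stfa3, from the authors' deposited table). No fold is given for these, since a value of exactly 0 may come from an estimate that failed. Stfa2l1 and Stfa2 also share sequence: 24.6% and 15.9% of their 50-base windows occur in other genes, mostly in each other. The level of Stfa2l1 relative to Ctsl was 0.0421 in wild type and 0.0792 in the knockout.

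The promoters of Stfa2l1 and Stfa2 are shown because they are near copies and, of the rising inhibitors with a promoter in the table, the only 2 of 14 with GGAAGT, a core of Ets binding sites. Capitals mark that core, which lies on the opposite strand in both and so reads ACTTCC. They come from chr16:36156561-36156860 (plus strand) for Stfa2l1 and chr16:36408314-36408613 (minus strand) for Stfa2.
Stfa2l1: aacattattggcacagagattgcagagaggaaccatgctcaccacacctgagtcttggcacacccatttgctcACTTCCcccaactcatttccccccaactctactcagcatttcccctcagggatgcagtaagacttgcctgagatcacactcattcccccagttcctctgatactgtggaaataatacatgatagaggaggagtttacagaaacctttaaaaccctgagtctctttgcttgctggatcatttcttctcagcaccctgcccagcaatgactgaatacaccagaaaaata
Stfa2: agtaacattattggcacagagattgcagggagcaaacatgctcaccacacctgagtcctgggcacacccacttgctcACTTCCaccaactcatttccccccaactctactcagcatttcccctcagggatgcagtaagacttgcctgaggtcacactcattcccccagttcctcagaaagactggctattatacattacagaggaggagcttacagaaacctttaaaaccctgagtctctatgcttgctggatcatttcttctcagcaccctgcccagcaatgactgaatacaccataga
These 2 windows were 92.9% identical over 296 aligned bases. The promoter of Stfa3 was 84.4% identical to that of Stfa2l1 and held no GGAAGT on either strand. The core was found on either strand in 26.5% of all genes with a promoter, in 2 of 12 proteases that rose and in 5 of 12 that fell (Capn10, Capn13, Dpp3, Dpp4 and Prss32). It was also found in 1 of 3 inhibitors that fell (Wfdc18), and in 10 of 47 members in all, or 21.3%, beside 26.5% of all genes. The longer form ACCGGAAGT was found in 1.21% of all genes and in 0 of the 47 members with a promoter. Binding of Elf4 was not measured.

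The 5 listed WAP domain proteins split by gene, also within 1 locus. Wfdc21 rose 14.5-fold, from 5.54 to 80.1 FPKM, the largest fold of any inhibitor. Wfdc17, a gene of activated macrophages, rose 2.45-fold, from 183 to 449 FPKM. Between them on chromosome 11, within 48.7 kb (chr11:83703991-83752642, GRCm38), lies Wfdc18, which fell 6.16-fold, from 225 to 36.5 FPKM. These neighbors share 0% of their 50-base windows with other genes. On chromosome 2, Wfdc12 rose 7.60-fold, from 12.8 to 97.0 FPKM, and Wfdc2, a secreted protein of epithelia also known as HE4, fell 12.3-fold, from 51.9 to 4.21 FPKM. Slpi, the best known member of the family, was not in the table and is not analysed here.

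Clade B serpins are mostly intracellular and protect cells from proteases released inside them. Serpinb1a, an inhibitor of neutrophil elastase, cathepsin G and proteinase 3, fell 8.82-fold, from 545.5 to 61.8 FPKM. Serpinb6a, an inhibitor of cathepsin G, fell 2.27-fold, from 331 to 146 FPKM. Serpinb5, known as maspin, is counted here as a serpin without known inhibition of a protease, and it fell 19.2-fold, from 65.8 to 3.43 FPKM. The clade B inhibitors thus went from a sum of 877 to one of 209 FPKM, opposite to the clade A serpins. Elane, Prtn3 and Ctsg, which encode the neutrophil proteases named above, were not in the table.

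**Figure D4:**
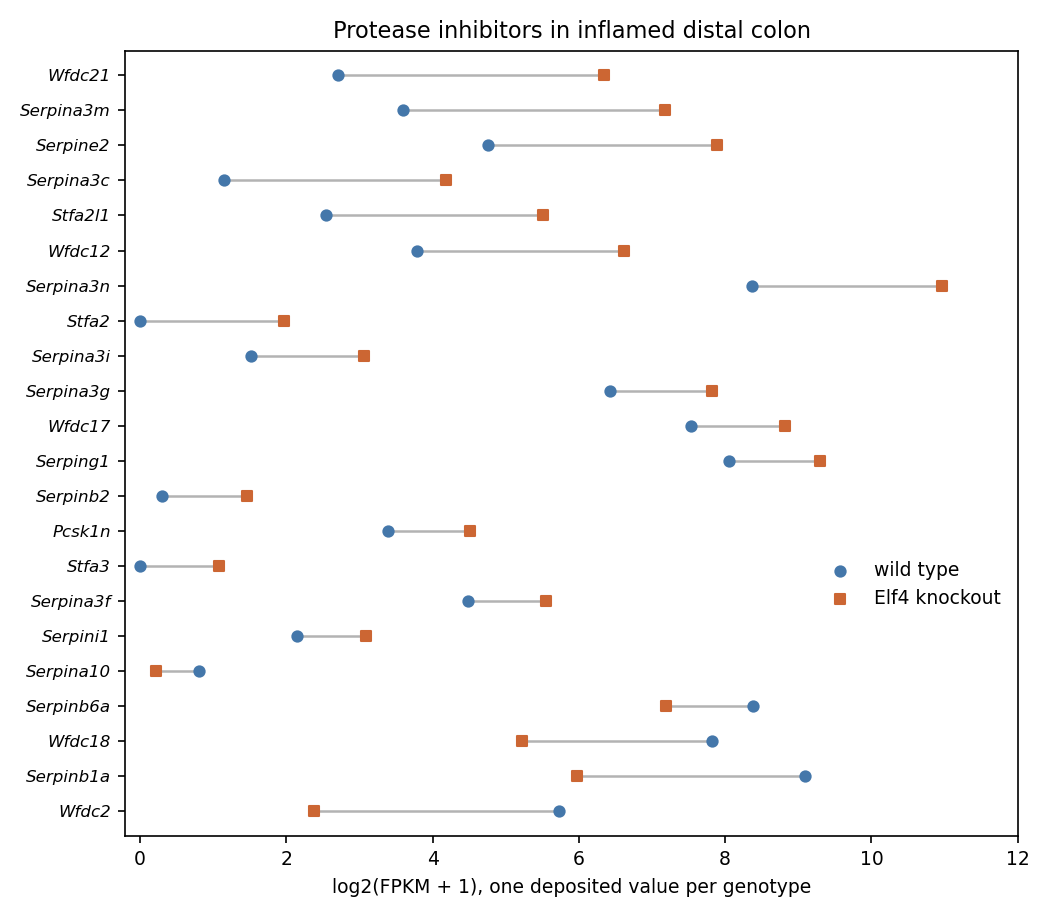
Each row is 1 of 22 of the inhibitors, with its level in wild type (blue circle) and in the Elf4 knockout (orange square) on a log2(FPKM + 1) axis, 1 deposited value per genotype, ordered by the difference. The 5 at the bottom were lower in the knockout, among them Serpinb1a, and Serpina3n reaches 1993 FPKM in the knockout.

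Beside the markers, the 16 rising inhibitors with a fold spanned 2.15-fold to 14.5-fold. The 12 rising neutrophil markers spanned 2.43-fold to 108-fold with a median of 11.8-fold, and 12 of the 16 inhibitors lay inside that range. The 2 other listed neutrophil markers, Ly6g and Ltf, fell. The 10 rising macrophage markers spanned 2.08-fold to 49.5-fold with a median of 4.71-fold, and 16 of the 16 lay inside. The 6 fibroblast markers spanned 2.12-fold to 5.21-fold, and 9 inhibitors rose more than any of them, among them Wfdc12, Wfdc21, Stfa2l1, Serpina3n, Serpina3c, Serpina3m, Serpinb2 and Serpine2. The part of these cells in the rise of the inhibitors was not tested. Every listed gene differed by at least 2-fold, and the marker ranges were taken from rising markers only. Counts inside such wide ranges are thus not particular to the inhibitors. The share of all listed rising genes inside them was not computed.

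The remaining genes picked up by symbol have no peptidase or inhibitor activity of their own. Adam23, a catalytically inactive ADAM of neurons that binds integrins, rose 3.97-fold, from 6.86 to 27.2 FPKM. Adam11, another inactive ADAM, rose 4.42-fold, from 1.53 to 6.78 FPKM. Adam22 and Dpp6 also rose and were below 5 FPKM in both genotypes (q of 0.0482 and 0.00128, taken from the authors' deposited table). All 4 are known from neurons, as is Pcsk2. Cstf2, an RNA cleavage factor that matches only by its letters, fell 2.14-fold, from 15.2 to 7.11 FPKM (q = 0.00184, from the authors' deposited table). Its locus in the table also holds another listed gene, Nox1.

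Members lay close together in several places, mostly within a family, and some neighbors moved alike. Of 6 groups of members within 500 kb of each other, 3 moved in 1 direction: the Serpina3 genes and the stefins upward, and Prss32, Prss30 and Prss27 on chromosome 17 downward within 209 kb. The other 3 groups were mixed, namely Wfdc17, Wfdc18 and Wfdc21, then Wfdc12 with Wfdc2, then Ctsf with Dpp3, which are of different families. How often neighbors among all listed genes move alike was not computed.

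Outside the symbol rule, 8 further lists held 132 protease, inhibitor and receptor genes, of which 47 were in the table, 21 higher and 26 lower. These shares, 44.7% higher and 55.3% lower, lay near the 48.0% and 52.0% of all listed genes. Of 23 Kunitz, Kazal and macroglobulin inhibitors and relatives, 14 were listed, 9 higher and 5 lower (64.3% higher). Spink4, a Kazal gene of goblet cells, fell from 2028 to 65.5 FPKM, and Pi15, encoding a trypsin inhibitor, rose from 5.15 to 90.0 FPKM. Of 16 granule serine proteases, 4 were listed and all 4 fell, among them the mast cell proteases Mcpt1 and Mcpt2 and the lymphocyte protease Gzma. Of 11 mast cell markers, 4 were listed, 2 lower (Mcpt1 and Mcpt2) and 2 higher. The higher ones were Hdc, for histamine synthesis, from 7.06 to 50.5 FPKM, and Kit, the stem cell factor receptor, from 7.95 to 17.7 FPKM. Summed, the 4 went from 64.6 to 73.3 FPKM, and their part in the protease values was not tested. Gzmc, chosen after its values were seen, went from 0.927 FPKM to a listed 0. Of 19 kallikreins and trypsin-like proteases, 2 were listed, St14 and Klk1, which fell from 549 to 29.9 FPKM. Of 24 brush border and cell surface peptidases, 5 were listed, 2 higher and 3 lower (40% higher). Ggt6, of the gamma-glutamyl transferase family, fell from 15.2 to 0.766 FPKM and Enpep, an aminopeptidase that acts on angiotensin, rose from 4.09 to 15.2 FPKM.

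Of 16 relatives of cathepsins and lysosomal peptidases, 2 were listed. Ctla2a, whose product resembles a cathepsin propeptide and inhibits cathepsin L-like enzymes, rose 16.5-fold, from 13.7 to 227 FPKM, and Ctla2b rose 6.60-fold, from 5.65 to 37.3 FPKM. Ctsl rose alongside both.

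The locus in the table was over 1 kb wider than the annotated gene for 14 of the 62 genes, and for 9 of these it holds another annotated coding gene, so reads of neighbors are not separable by locus. These 9 are Adam8, Capn5, Cstf2, Pcsk1n, Prss32, Prss8, Serpinb6a, Tmprss4 and Wfdc12. The loci of Serpina3m and Dpp6 were no wider than the gene but also hold another annotated coding gene, Serpina3k and Speer4b. Unless another q is given, the q of a member was 0.000372, the smallest value in the authors' deposited table, as it was for 49 of the 62.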

How the data were processed

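RNA was sequenced from inflamed distal colon, with 2 WT and 2 Elf4-KO samples. Trizol was used for RNA extraction and a Vazyme kit for the mRNA libraries, per the labels' protocols. The submitters' processing notes name Bowtie 0.12.2, Cufflinks 2.2.1 and mm8 with no role or order. The authors deposited 1 FPKM value per gene and genotype, per the file headers, and the sources used here do not say how both samples were combined. The authors' comparison also gave the deposited p-value and q-value columns. No listed gene had q above 0.05 or a fold below 2. The table thus holds called genes only, and percentages beside the members are shares of its 4121 genes.

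Genes were taken by symbol and sorted into families and sides by a table of name patterns. The members, families and lists were chosen with earlier results of these data known. Of the members, 61 are named and 1 is not reported here by name. Values are given where the higher genotype reached 5 FPKM or 1 was listed at 0. Of other lists, the 3 largest changes with at least 1 FPKM could be named, and the text marks any other gene. Log2 ratios used a pseudocount of 1, which understates changes of low genes, and folds used the FPKM values alone. Coordinates in the table were taken as GRCm38, since many members, Serpina3n and Wfdc2 among them, have the same start and end in GENCODE M21. All 62 members also lie on their chromosome there, which alone does not tell builds apart. Coordinates are printed counting from 1. Shared sequence was counted as 50-base windows of GENCODE M21 transcripts. Promoters were matched by symbol for 47 of the 62 members. The counting functions were tested on simulated data. Without values per sample, no test, SD, interval or depth could be computed. Tools were Python 3.11.15, pandas 2.3.3, numpy 2.4.6 and matplotlib 3.10.9.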

Additional observations from a re-analysis of the deposited data

How the results depend on the processing

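No paired analysis was possible because each genotype has only 1 deposited value. Leaving out each replicate was not run for the same reason, so the weight of a single sample is not known. Shifts of over 1.5 times are given. Keeping differences of at least 4-fold left 17 members higher, 5 proteases higher, 11 inhibitors higher and 11 of the genes in the further lists higher, by construction fewer, with medians of -2.35 for proteases and 2.60 for inhibitors on the log2 scale. Genes listed at 0 in 1 genotype, such as Stfa2 and Stfa3, have no fold but were kept under this 4-fold setting. Counting inactive relatives with their families gave 18 proteases higher and 18 lower and moved the protease median to -0.15. Centring on the table median, the same shift for all genes, gave -0.44 for proteases and 2.04 for inhibitors, with Serpina10 at 0.17. A pseudocount of 0.1 gave 1.93 for the inhibitors. Without the highest gene of each side, the knockout sum over the wild-type sum was 0.573 for the proteases and 1.30 for the inhibitors. Without calpain 6, an alternative chosen after seeing the data, 13 proteases were higher and 18 lower. With q of at most 0.01, 33 members were higher and 22 lower, and with at least 5 FPKM 30 and 23. With pseudocounts of 0.1 and 0, 54 members each shifted by less than 1.5 times.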

Other observations

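The listed cytosolic proteases of cell death and antigen processing were lower in the knockout. Of 10 caspases, 6 were listed and all 6 fell, beside 52.0% lower among all listed genes. Of all annotated coding genes, 17.5% were listed. The caspase sum went from 461 to 102 FPKM. All 20 epithelial markers were lower too, and the part of cell types in these values was not tested. Casp1, the inflammasome caspase, went from 126 to 18.0 FPKM and Casp8, the initiator downstream of death receptors, from 114 to 26.1 FPKM. Of 6 catalytic proteasome subunits, the 3 listed were those of the immunoproteasome, which replaces the constitutive form where interferon acts. Psmb10 went from 224 to 43.0 FPKM, Psmb9 from 80.1 to 19.7 FPKM and Psmb8 from 243 to 87.0 FPKM, with q = 0.00211 for Psmb8 and Psmb9 in the authors' deposited table.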
